A study of Mus musculus with 12 samples.

Results

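The genes of DNA replication and nucleotide supply were followed in macrophages of the ischemic mouse muscle. The set holds 49 genes, chosen by symbol as factors of origin licensing, the replicative helicase, the polymerases, chromatin assembly and dNTP synthesis, of 55414 gene IDs in the count table. All 49 matched a single Ensembl ID, and all 49 passed the filter on low counts, beside 14310 genes tested in all. RNA-seq covered 12 libraries of F4/80+CD64+ macrophages (surface markers of mouse macrophages), sorted from digested calf muscle after ligation of the femoral artery, which stops the blood flow to the hindlimb. The groups were days 1, 2, 4 and 7 after injury (dpi, days post injury) with 3 libraries each, all from C57BL6J wild type males 8 to 12 weeks old that had hindlimb ischemia. No library of uninjured muscle or of blood monocytes was used, so every comparison is between time points after the injury. Whether each library came from 1 mouse or from a pool is not given in the sources used here, so the P values rest on a spread between libraries that may be technical.

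DNA is copied once per cell cycle, and the machinery is built in steps. The origin recognition complex, Cdc6 and Cdt1 load the ring of the Mcm2 to Mcm7 proteins onto DNA, and the kinase of Cdc7 and Dbf4 turns that ring, together with Cdc45 and the GINS complex, into the active helicase. Polymerase alpha and primase start each strand, polymerases epsilon and delta extend it, the clamp Pcna holds them on the DNA, and Lig1 joins the fragments of the lagging strand. Ribonucleotide reductase, thymidylate synthase and thymidine kinase supply the deoxynucleotides, and the Chaf1 proteins and Uhrf1 restore chromatin and DNA methylation behind the fork. Many of these genes are transcribed at the entry into S phase under E2F transcription factors, and macrophages that have settled in a tissue can divide there.

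The promoters of the members are shown because E2F is the known regulator of many of them. RefSeq promoters of build GRCm38.p6, spanning 250 bases before to 50 bases after a gene's start, were at hand for 41 of the 49 members, and for the 7 members with more than 1 start the first one listed was taken. The E2F motif was searched as TTTCCCGC, TTTGGCGC, TTTCGCGC or TTTGCCGC on both strands. It was found in 14 of the 41 member promoters (34.1%), in 4.2% of the 10034 promoters of genes tested and in 2.32% of all 27025 promoters. The CCAAT box, searched as CCAAT on both strands, was in 25 of 41 (61%), beside 38.7% of the promoters of genes tested and 37.9% of all promoters. In 1 member promoter it shared a base with an E2F match. The CHR element of genes transcribed late in the cell cycle was searched as TTTGAA or TTCGAA on both strands. It was in 8 of 41 (19.5%), beside 14.1% of the promoters of genes tested and 19.4% of all promoters, near the share of the members. Of the members upregulated from 1 to 2 dpi, 10 of 28 with a promoter held the E2F motif, and of the others 4 of 13 did. A match is a description of the letters, and factor binding was not measured in these libraries. The promoters below belong to the 5 members described library by library that hold the motif, printed 5′ to 3′ on the gene's own strand with the E2F matches in capitals, overlapping matches joined. Mcm6 lies at chr1:128359656-128359955 (minus strand), with matches 110 and 47 bases before the start. Mcm7 lies at chr5:138171834-138172133 (minus strand), with matches 165 bases before and 16 bases after it. Pola1 lies at chrX:93632106-93632405 (minus strand), with 1 match 138 bases before the start, Pold1 at chr7:44548766-44549065 (minus strand), with 1 match 39 bases after it, and Cdt1 at chr8:122567765-122568064 (plus strand), with 1 match 32 bases after it.
Mcm6: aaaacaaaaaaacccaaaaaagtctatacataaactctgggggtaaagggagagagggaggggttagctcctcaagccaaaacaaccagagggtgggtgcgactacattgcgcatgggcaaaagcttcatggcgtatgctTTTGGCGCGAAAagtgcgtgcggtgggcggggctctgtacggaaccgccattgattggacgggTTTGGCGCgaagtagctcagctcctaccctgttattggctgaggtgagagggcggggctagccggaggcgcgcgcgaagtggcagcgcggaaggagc
Mcm7: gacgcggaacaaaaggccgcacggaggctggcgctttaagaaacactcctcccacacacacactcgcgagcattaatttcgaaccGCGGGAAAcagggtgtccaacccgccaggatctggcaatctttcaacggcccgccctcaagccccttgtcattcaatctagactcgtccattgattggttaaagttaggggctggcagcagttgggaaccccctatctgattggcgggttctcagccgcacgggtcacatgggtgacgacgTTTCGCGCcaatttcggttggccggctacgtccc
Pola1: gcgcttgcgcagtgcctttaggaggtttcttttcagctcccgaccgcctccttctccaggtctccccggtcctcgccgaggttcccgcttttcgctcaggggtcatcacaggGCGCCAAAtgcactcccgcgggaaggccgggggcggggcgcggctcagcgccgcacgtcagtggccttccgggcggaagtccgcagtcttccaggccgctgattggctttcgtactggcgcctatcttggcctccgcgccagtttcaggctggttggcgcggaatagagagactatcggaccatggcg
Pold1: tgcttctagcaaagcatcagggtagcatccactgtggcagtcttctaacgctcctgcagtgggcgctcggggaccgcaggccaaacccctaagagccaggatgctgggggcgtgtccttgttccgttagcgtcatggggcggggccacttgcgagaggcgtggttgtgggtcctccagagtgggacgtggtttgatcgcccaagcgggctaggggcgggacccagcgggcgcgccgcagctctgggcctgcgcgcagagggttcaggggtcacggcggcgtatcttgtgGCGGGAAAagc
Cdt1: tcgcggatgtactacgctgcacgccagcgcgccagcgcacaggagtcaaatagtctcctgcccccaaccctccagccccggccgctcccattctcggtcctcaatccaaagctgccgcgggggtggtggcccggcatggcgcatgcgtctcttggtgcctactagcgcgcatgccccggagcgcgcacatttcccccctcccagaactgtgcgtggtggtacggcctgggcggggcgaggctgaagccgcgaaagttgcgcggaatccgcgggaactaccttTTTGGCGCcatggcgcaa

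Library totals were 19528316 to 33599472 counts, of which a single gene without a symbol took 14.8% to 55.7%, and 8992759 to 18581365 counts per library were left outside it. That share differed by time point, at 52.94% to 55.66% at 1 dpi, 40.32% to 46.04% at 2 dpi, 45% to 49.7% at 4 dpi and 14.84% to 30.14% at 7 dpi. Levels are given as CPM (counts scaled to a common library size after TMM), and as CPM per kilobase of exon (RPKM) where genes are compared with each other. The TMM factors differed by time point as well, from 0.6518 to 0.7255 at 1 dpi to 1.347 to 1.7 at 7 dpi. The length of a gene was the union of all its annotated exons, so the ranks of genes by RPKM depend on that annotation. The labelled cell type was checked on 8 macrophage markers, none of which was at 0 at any time point, with a summed level of 5657 to 14821 CPM. Lyz2 alone was at 3010 to 11700 CPM. Between 1 and 7 dpi 4 of the 8 were upregulated and 2 downregulated. The 8 markers of T and NK cells summed to at most 1.565 CPM. Fibroblast markers summed to 15.72 to 52.82 CPM at 1 dpi, 28.58 to 45.94 at 2 dpi, 133.8 to 258.5 at 4 dpi and 415 to 834.3 at 7 dpi, and none of the 7 was at 0 in all 3 libraries of a time point. Markers of muscle stem cells and myoblasts summed to 5.077 to 13.12 CPM at 1 and 2 dpi, 16.33 to 25.46 at 4 dpi and 47.74 to 59.43 at 7 dpi. From 2 to 4 dpi 5 of 7 were upregulated (median log2FC 3.65). Vcam1 alone made 9.98 to 16.5 CPM at 4 dpi and 42.6 to 54.6 CPM at 7 dpi. Pax7, Myod1, Myf5, Myog and Cdh15 were each at 2.97 CPM or less. Those of B cells summed to 7.073 to 16.75 CPM at 1 dpi, 68.45 to 200.2 at 4 dpi and 125 to 175 at 7 dpi, with Pax5 at 0 at 4 and 7 dpi and Ighm alone at 64 to 193 CPM at 4 dpi. Neutrophil markers summed to 131 to 202.7 CPM at 1 dpi and to 43.48 to 82.26 CPM later, with Ly6g at 0 from 2 dpi on. At 7 dpi Csf3r alone made 41.4 to 51.4 CPM of that sum, and S100a8, S100a9, Cxcr2 and Retnlg were each at 0.162 CPM or less. Muscle fibre markers summed to 7.199 to 14.62 CPM at 4 dpi and 39.88 to 102.6 at 7 dpi, with 4 of 8 upregulated in that step (median log2FC 2.81). Endothelial markers summed to 21.22 to 34.42 CPM at 4 dpi and 38.62 to 91.47 at 7 dpi, with 2 of 7 upregulated (median 1.15), and dendritic cell markers to 2.723 to 5.894 CPM at 1 dpi and 6.586 to 16.2 at 7 dpi, with 4 of 6 upregulated between these. The part of these cells in the levels of the replication genes was not tested. In RNA of a sorted population, more cells in S phase and more RNA of these genes per cell cannot be told apart.

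Most of the 49 genes rose between 1 and 2 dpi and 15 fell between 4 and 7 dpi, with 1 library at 4 dpi and 1 at 7 dpi far from the others. Their summed level was 310.5, 313.4 and 302.5 CPM in the 3 libraries of 1 dpi, 868.5, 1014 and 978 CPM at 2 dpi, 1205, 576.6 and 698 CPM at 4 dpi, and 378.9, 337.8 and 619.5 CPM at 7 dpi. The 1 and 2 dpi libraries lay close to each other within their groups and far apart between them. At 4 dpi replicate 1 stood above all 3 libraries of 2 dpi and the other replicates below them, and at 7 dpi replicate 3 stood above the other replicates and between the lower libraries of 4 dpi. The mean of 30 members was highest at 2 dpi, that of 17 at 4 dpi, that of 2 at 7 dpi and that of none at 1 dpi. The lowest mean was at 1 dpi for 39 members and at 7 dpi for 10, namely Cdc7, Cdt1, Fen1, Orc2, Orc6, Pcna, Pold1, Pold2, Prim2 and Rfc4. All 5 genes of dNTP supply had their highest mean at 4 dpi, while all 6 genes of the MCM ring had it at 2 dpi. Some of these peaks rest on 4 dpi replicate 1, and they were not counted without it. Dut was at 9.44 CPM in that library and at 3.91 and 5.44 in the others of 4 dpi, beside 5.33, 6.97 and 6.16 at 2 dpi. Likewise, Rrm1 was at 68.8 CPM in it and at 32.4 and 41.4 in the others, beside 27.9, 41 and 42.4 at 2 dpi. For Tk1 every library of 4 dpi lay above every library of 2 dpi. The means of Mcm7 were nearly equal, 55.7 CPM at 2 dpi and 55.2 at 4 dpi. Without that library the median log2FC of dNTP supply from 2 to 4 dpi was still above 0, at 0.32.

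**Figure D1:**
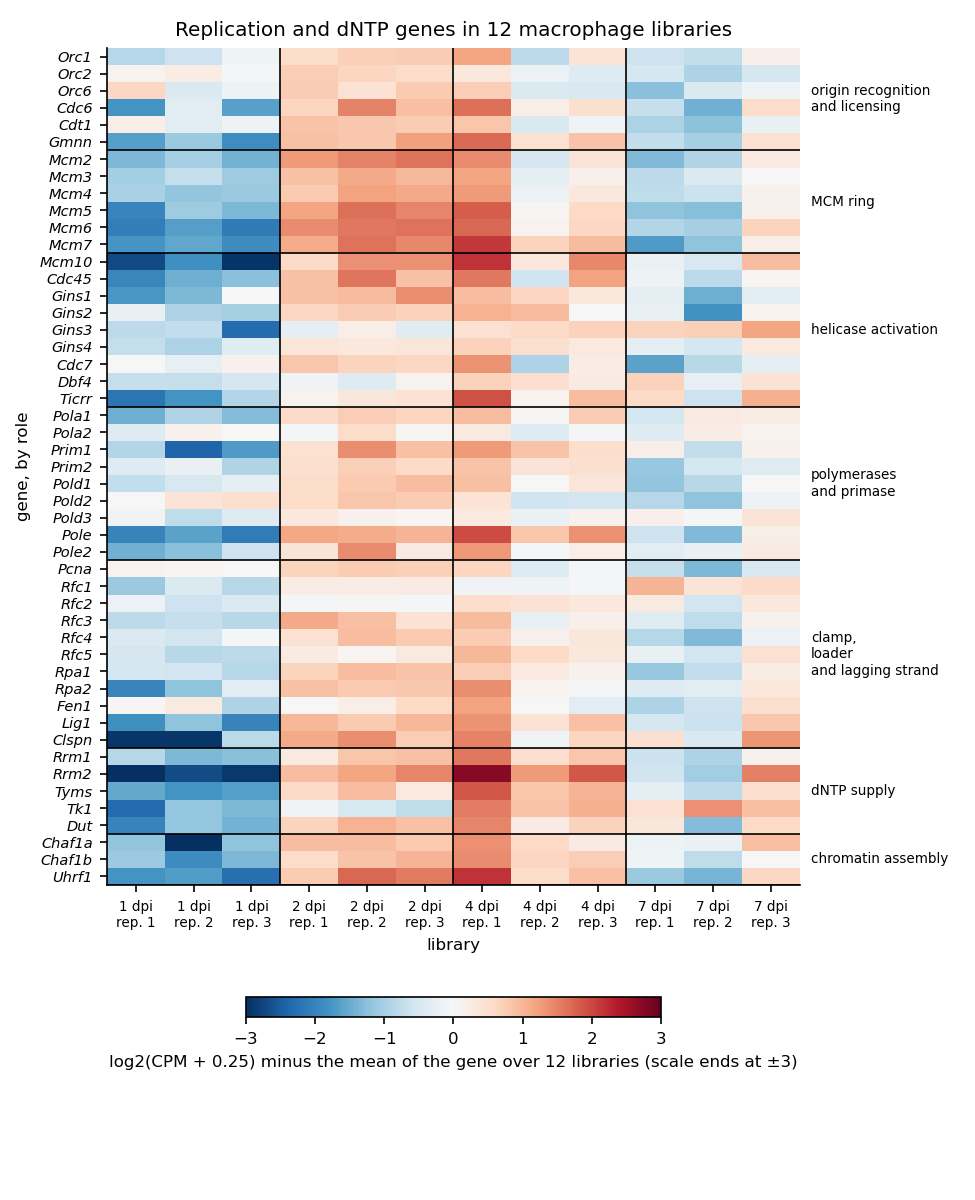
Level of each of the 49 genes (rows, by role) in each of the 12 libraries (columns, by time point), as log2(CPM + 0.25) minus the mean of the gene over the 12 libraries, with colours ending at 3 in either direction. Most rows are blue at 1 dpi and red at 2 dpi, but not all. Pcna, for example, lies near its mean at 1 dpi, and Tk1 below its own at 2 dpi. Replicate 1 of 4 dpi is the reddest column of its time point, and 7 dpi replicate 3 is redder than the other columns of 7 dpi.

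These 2 libraries stood apart across the whole set. Replicate 1 of 4 dpi was the highest of its time point for 47 of the 49 members, where it was the highest for 39.3% of all genes tested, and it lay above all 3 libraries of 2 dpi for 32 members and below them for 4. Replicate 2 of 4 dpi lay above them for 7 members and below them for 36, and replicate 3 above for 11 and below for 27. At 7 dpi, replicate 3 was the highest for 42 of 49 members (35.5% of all genes tested) and replicates 1 and 2 for 4 and 3. Counts outside the gene without a symbol were 17732167 in 4 dpi replicate 1, the most of its time point, and 17486189 in 7 dpi replicate 3, fewer than the 18581365 of replicate 1. The summed macrophage markers were lower in 4 dpi replicate 1 (6825 CPM) than in the other replicates of 4 dpi (11580 and 8664 CPM), and in 7 dpi replicate 3 (10908 CPM) they lay between those of the other replicates (14821 and 10115 CPM). Lyz2 alone made 3870 CPM of the sum in 4 dpi replicate 1, and 7980 and 5280 CPM in the others. In 4 dpi replicate 1 Adgre1, Ptprc, Csf1r, Lyz2 and Mertk were the lowest of that time point, and Fcgr1, Itgam and Cd68 the highest. The part of these differences in the levels of the members was not tested. Apart from the peaks, results that rest on these libraries are given with and without them.

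**Figure D2:**
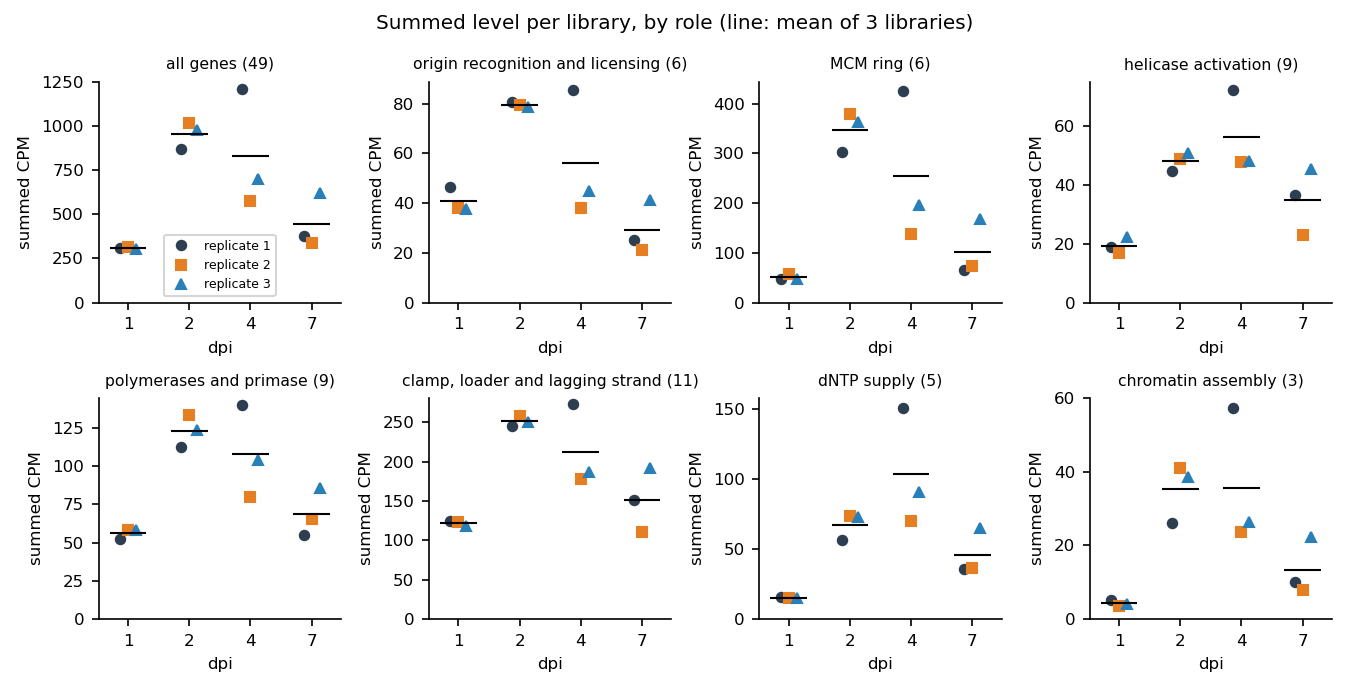
Summed CPM of all 49 genes and of the 7 role groups (y-axis, from 0) in each library by dpi (x-axis), with a line at the mean of 3 libraries and the number of genes in brackets. Sums at 1 dpi lie below those at 2 dpi in every group, and replicate 1 is the highest library of 4 dpi in every group.

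From 1 to 2 dpi, 35 of the 49 members were upregulated DEGs (FDR under 0.05 and absolute log2FC above 1 in edgeR's quasi-likelihood test) and 0 were downregulated, where 5.09% of all genes tested were upregulated and 3.97% downregulated. Without the threshold on the fold change, 36 passed upwards and 0 downwards, beside 986 and 801 of the 14310 genes tested. With DESeq2, 33 were upregulated and 0 downregulated. All 49 had a log2FC above 0, with a median of 1.88 and a range of 0.27 to 4.78, beside a median of 0.01 over all genes tested. In 46 of 49 members every 2 dpi library lay above every 1 dpi library, which held for 20.9% of all genes tested. Of the 35 calls, 25 were kept in each of the 12 fits that left out 1 library.

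Among the licensing factors, 2 of 6 rose, and the median log2FC was 1.26. Cdt1, which brings the MCM ring to origins, was at 26.1, 18.3 and 21 CPM at 1 dpi, 42.5, 41 and 39.4 CPM at 2 dpi, 41.7, 16.9 and 21.7 CPM at 4 dpi and 12, 9.7 and 19.9 CPM at 7 dpi. The groups of 1 and 2 dpi did not overlap, but the increase did not pass the test (log2FC = 0.91, SE 0.30, adjusted P = 0.0569, edgeR). Orc2, a subunit of the origin recognition complex that stays expressed outside S phase in many cells, was at 12, 13 and 10.8 CPM at 1 dpi, 18.5, 17.4 and 16.3 CPM at 2 dpi, 13.8, 9.81 and 8.34 CPM at 4 dpi and 7.58, 5.67 and 7.72 CPM at 7 dpi. Its log2FC from 1 to 2 dpi was 0.54 (SE 0.22, adjusted P = 0.116, edgeR). The members of the group that rose were Cdc6, the ATPase that loads the ring (log2FC = 2.37, a call lost without 1 dpi replicate 1, 1 dpi replicate 3 or 2 dpi replicate 2), and Gmnn, the inhibitor of Cdt1 (log2FC = 2.69). Per length the group was unequal at 1 dpi, when Cdt1 stood at 6.94 RPKM, Orc2 at 3.1, Gmnn at 0.853 and Cdc6 at 0.175 RPKM.

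All 6 genes of the MCM ring rose, with a median log2FC of 2.82 and a range of 1.94 (Mcm3) to 3.51 (Mcm6). Mcm6 was at 8.33, 11.1 and 7.94 CPM at 1 dpi, 95.4, 108 and 110 CPM at 2 dpi, 118, 38.1 and 54.5 CPM at 4 dpi and 19.4, 17.6 and 56.9 CPM at 7 dpi. Its rise from 1 to 2 dpi was 11.4-fold (log2FC = 3.51, SE 0.45, adjusted P = 0.000115, edgeR), with no overlap between the libraries. Mcm7 was at 5.97, 6.98 and 5.49 CPM at 1 dpi, 45.5, 64.8 and 56.9 CPM at 2 dpi, 91.9, 33.2 and 40.6 CPM at 4 dpi and 6.21, 8.93 and 24 CPM at 7 dpi. It rose 9.04-fold (log2FC = 3.18, SE 0.45, adjusted P = 0.000252, edgeR), and its 7 dpi libraries came back to near the level of 1 dpi except replicate 3. The ring holds 1 copy of each of its 6 proteins, and per length its transcripts ranged at 2 dpi from 7.27 RPKM for Mcm2 to 22.3 RPKM for Mcm6, with Mcm3, Mcm4, Mcm5 and Mcm7 between 11.2 and 12.6 RPKM. The place of Mcm2 rests on its annotated length of 6956 bases, the longest of the ring. In CPM its mean at 2 dpi was 50.5, beside 47.3 for Mcm3 and 40.2 for Mcm4.

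Of the 9 genes of helicase activation, 6 rose (median log2FC 1.5). Gins4, a subunit of the GINS complex, had the highest CPM of the group, with 8.02, 6.73 and 10.3 CPM at 1 dpi, 17.2, 16.7 and 17.3 CPM at 2 dpi, 21.7, 18.5 and 16.3 CPM at 4 dpi and 11, 9.12 and 16.4 CPM at 7 dpi. It rose 2.04-fold (log2FC = 1.03, SE 0.24, adjusted P = 0.00863, edgeR), a call that was lost without 1 dpi replicate 2 (log2FC 0.90), with RLE scaling and with DESeq2. Dbf4, the activating subunit of the Cdc7 kinase, was at 5.34, 5.25 and 6.09 CPM at 1 dpi, 8.19, 6.67 and 9.57 CPM at 2 dpi, 14.4, 12.7 and 10.6 CPM at 4 dpi and 14.5, 7.42 and 12 CPM at 7 dpi. No step between successive time points passed the test for Dbf4 (log2FC of 0.55 with adjusted P = 0.174, 0.63 with adjusted P = 0.0868 and -0.15 with adjusted P = 0.672, edgeR), although each 2 dpi library lay above each of 1 dpi and each 4 dpi library above each of 2 dpi. The other members that rose were Mcm10, Cdc45, Gins1, Gins2 and Ticrr, with log2FC of 1.49 (Gins2) to 4.38 (Mcm10), while Cdc7 (0.84) and Gins3 (1.5) did not pass. Of these calls, that of Gins1 was lost without 1 dpi replicate 1, 1 dpi replicate 2 or 2 dpi replicate 3, that of Gins2 without 1 dpi replicate 2, 1 dpi replicate 3 or any library of 2 dpi, and that of Ticrr without 1 dpi replicate 1, 1 dpi replicate 2 or any library of 2 dpi. At 1 dpi Mcm10 was at 0.157, 0.493 and 0.0923 CPM, Cdc45 at 0.157, 0.328 and 0.415, and Ticrr at 0, 0.0821 and 0.369. The sizes of their changes are therefore uncertain.

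Among the polymerase and primase genes, 6 of 9 rose (median log2FC 1.26), and the 3 others, Pola2, Pold2 and Pold3, were accessory subunits. Pole2, an accessory subunit of polymerase epsilon, did rise (log2FC = 2.11, SE 0.50, adjusted P = 0.0106, edgeR), a call lost without 2 dpi replicate 2. Pola1, the catalytic subunit of polymerase alpha, was at 6.76, 10 and 7.57 CPM at 1 dpi, 28.2, 32 and 29.9 CPM at 2 dpi, 36.3, 19.5 and 32.5 CPM at 4 dpi and 13.1, 23 and 22.2 CPM at 7 dpi. It rose 3.68-fold (log2FC = 1.88, SE 0.26, adjusted P = 0.000241, edgeR), whereas its partner Pola2 had the smallest change of the set (log2FC = 0.27, SE 0.28, adjusted P = 0.587). Pold1, the catalytic subunit of polymerase delta, was at 9.9, 11.9 and 13.5 CPM at 1 dpi, 24.3, 28.7 and 31.8 CPM at 2 dpi, 31.3, 16.6 and 21.5 CPM at 4 dpi and 7.18, 9.3 and 16.5 CPM at 7 dpi. It rose 2.39-fold (log2FC = 1.26, SE 0.29, adjusted P = 0.00837, edgeR), and its accessory subunits Pold2 (log2FC 0.42, adjusted P = 0.394) and Pold3 (log2FC 0.58, adjusted P = 0.0888) did not pass the same test. Whether partners differed from each other was not tested. Pole, the catalytic subunit of polymerase epsilon, was at 0.314, 0.493 and 0.277 CPM at 1 dpi, 4.73, 4.63 and 4.3 CPM at 2 dpi, 8.5, 3.73 and 5.53 CPM at 4 dpi and 1.21, 0.647 and 2.29 CPM at 7 dpi, a low transcript in every library that rose 12.2-fold (log2FC = 3.61, SE 0.50, adjusted P = 0.000231, edgeR). Prim2, the large subunit of primase, was at 5.89, 6.65 and 4.06 CPM at 1 dpi, 11, 12.8 and 11.8 CPM at 2 dpi, 14.3, 10.3 and 11 CPM at 4 dpi and 3.4, 5.27 and 5.94 CPM at 7 dpi. It rose 2.14-fold (log2FC = 1.10, SE 0.26, adjusted P = 0.00957, edgeR), a call lost without 1 dpi replicate 3 (log2FC 0.93).

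The clamp, its loader and the lagging-strand factors held 7 genes that rose of 11 (median log2FC 1.11). Pcna, the sliding clamp, was the most abundant member per length at each time point, with 20.7 RPKM at 1 dpi and 32.8 RPKM at 2 dpi. It was at 51.7, 49.3 and 48 CPM at 1 dpi, 76.6, 80.8 and 78.5 CPM at 2 dpi, 74.4, 36.1 and 46.8 CPM at 4 dpi and 29.4, 18.8 and 34.8 CPM at 7 dpi. The libraries of 1 and 2 dpi did not overlap and differed by 1.58-fold, which did not pass the test (log2FC = 0.66, SE 0.25, adjusted P = 0.0891, edgeR). Rpa1, which coats single-stranded DNA, was at 22.9, 22 and 17.9 CPM at 1 dpi, 52.1, 62.5 and 59.5 CPM at 2 dpi, 55.4, 40.1 and 36 CPM at 4 dpi and 14.9, 19.6 and 38.3 CPM at 7 dpi, and rose 2.78-fold (log2FC = 1.47, SE 0.28, adjusted P = 0.00245, edgeR). The large loader subunit Rfc1 rose by a log2FC of 1.01 (SE 0.20, adjusted P = 0.00362, edgeR), just past the threshold, and was no longer called without 1 dpi replicate 1 (log2FC 0.88) or replicate 3 (log2FC 0.99), with RLE scaling, with DESeq2, in the fit of the 6 libraries compared, or without 4 dpi replicate 1 and 7 dpi replicate 2. Lig1, the ligase of the lagging strand, had a log2FC of 2.67, and Clspn, a checkpoint adaptor of the fork, one of 3.68. Clspn was at 0, 0 and 0.831 CPM at 1 dpi, so the size of its change is uncertain.

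**Figure D3:**
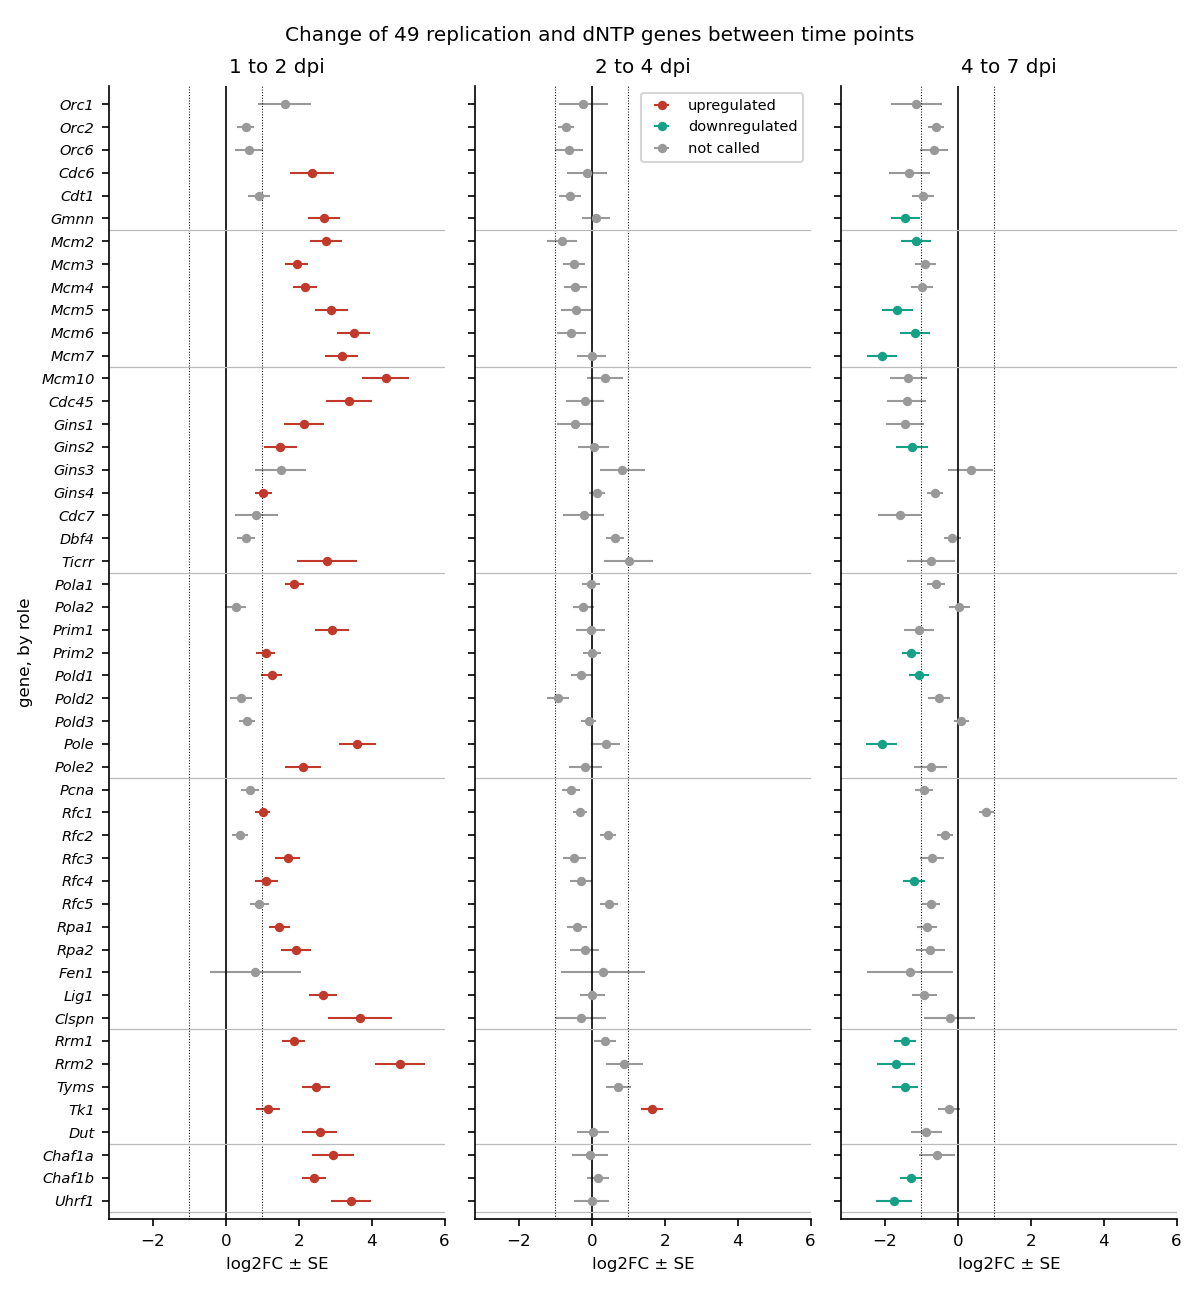
Log2FC ± SE (x-axis) of each of the 49 genes (y-axis, by role) for the 3 successive transitions, in red where upregulated, in green where downregulated and in grey where not called, with dotted lines at a log2FC of 1 and -1. From 1 to 2 dpi all points lie right of 0, from 2 to 4 dpi only Tk1 is coloured, and from 4 to 7 dpi 15 genes are green.

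All 5 genes of dNTP supply rose (median log2FC 2.48). Rrm2, the regulatory subunit of ribonucleotide reductase and the one made in S phase, was at 0.157, 0.575 and 0.461 CPM at 1 dpi, 9.77, 11.8 and 14.3 CPM at 2 dpi, 34.8, 12.6 and 19.1 CPM at 4 dpi and 3.27, 2.34 and 14.9 CPM at 7 dpi. Its rise was the largest of the 49 (27.5-fold, log2FC = 4.78, SE 0.69, adjusted P = 0.000286, edgeR), from a level of only 2 counts in 1 dpi replicate 1. Rrm1, the catalytic subunit, was at 12.6, 8.87 and 9.41 CPM at 1 dpi, 27.9, 41 and 42.4 CPM at 2 dpi, 68.8, 32.4 and 41.4 CPM at 4 dpi and 14.6, 12 and 25.3 CPM at 7 dpi, and rose 3.62-fold (log2FC = 1.86, SE 0.31, adjusted P = 0.000954, edgeR). In CPM the mean of Rrm1 was above that of Rrm2 at every time point. Per length, Rrm1 stood at 0.934 RPKM and Rrm2 at 0.144 RPKM at 1 dpi, and at 3.37 and 4.32 RPKM at 2 dpi, 4.32 and 7.99 at 4 dpi and 1.57 and 2.46 at 7 dpi. The higher RPKM of Rrm2 from 2 dpi on rests on the annotated lengths, 11012 bases for Rrm1 and 2771 for Rrm2. Tk1, which salvages thymidine, was at 1.18, 3 and 2.58 CPM at 1 dpi, 6.54, 4.98 and 4.05 CPM at 2 dpi, 20.7, 12.9 and 15 CPM at 4 dpi and 9.69, 18.4 and 13.2 CPM at 7 dpi. Its first rise was 2.23-fold (log2FC = 1.16, SE 0.33, adjusted P = 0.0298, edgeR), and the call was lost without 1 dpi replicate 1 (log2FC 0.90), 1 dpi replicate 3 (1.26), 2 dpi replicate 1 (0.96) or 2 dpi replicate 2 (1.19). Thymidylate synthase, Tyms, rose with a log2FC of 2.48 and Dut, which removes dUTP, with one of 2.57.

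The 3 genes of chromatin assembly all rose. Uhrf1, which guides the maintenance of DNA methylation, was at 2.2, 2.42 and 1.52 CPM at 1 dpi, 14.2, 27.7 and 24.7 CPM at 2 dpi, 37.8, 12.3 and 15.5 CPM at 4 dpi and 3.67, 3.02 and 12.9 CPM at 7 dpi. It rose 10.8-fold (log2FC = 3.44, SE 0.55, adjusted P = 0.000639, edgeR). Chaf1b, a subunit of the chromatin assembly factor, was at 2.04, 1.07 and 1.66 CPM at 1 dpi, 6.91, 8.56 and 9.57 CPM at 2 dpi, 12.8, 7.37 and 7.86 CPM at 4 dpi and 4.18, 2.65 and 4.64 CPM at 7 dpi, and rose 5.35-fold (log2FC = 2.42, SE 0.33, adjusted P = 0.000217, edgeR). For both genes the 2 dpi libraries lay above all of 1 dpi, and 4 dpi replicate 1 was the highest of the 12 libraries.

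**Figure D4:**
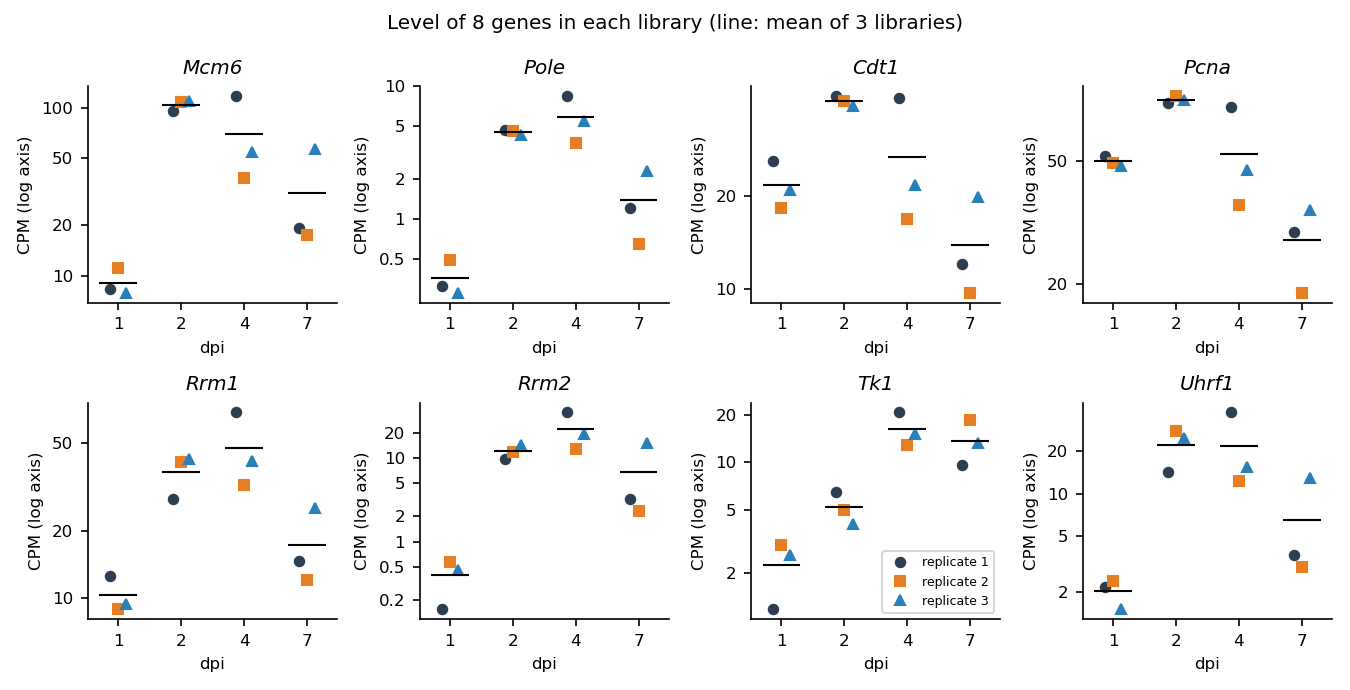
CPM (y-axis, log scale with its own range in each panel) of Mcm6, Pole, Cdt1, Pcna, Rrm1, Rrm2, Tk1 and Uhrf1 in each library by dpi (x-axis), with a line at the mean of 3 libraries. Cdt1 and Pcna lie lower at 7 dpi than at 1 dpi on average, Rrm2 spans the widest range, and Tk1 is the one of the 8 whose 7 dpi libraries all lie above those of 2 dpi.

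From 2 to 4 dpi, 1 member, Tk1, was upregulated and 0 were downregulated, where 8.02% of all genes tested were upregulated and 3.88% downregulated. Tk1 rose a further 3.13-fold (log2FC = 1.65, SE 0.31, adjusted P = 0.00172, edgeR), a call kept in each of the 12 fits that left out 1 library. With DESeq2 the counts were 1 and 0. Without the threshold on the fold change, Orc2 (log2FC -0.70, SE 0.22, adjusted P = 0.0302, edgeR) and Pold2 (log2FC -0.92, SE 0.30, adjusted P = 0.0408) passed downwards, beside 1245 of the 14310 genes tested. The median log2FC was -0.09, beside 0.04 over all genes tested. All 3 later libraries lay above the earlier ones in 5 members and below them in 4, which held for 22.3% and 21.8% of all genes tested. The median was below 0 for the MCM ring (-0.47), whose 6 members all had a log2FC below 0, and above 0 for dNTP supply (0.72), whose 5 members all had one above 0.

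The result of this step depended on 4 dpi replicate 1. Without that library, 7 members were downregulated, namely Cdt1, Orc6, Mcm2, Mcm3, Mcm5, Mcm6 and Pold2, Tk1 was still the one upregulated, and the median log2FC was -0.52. Of all genes tested in that fit, 6.37% were downregulated, more than the 3.88% with all libraries. In that fit 4 of the 6 genes of the MCM ring fell, with a median of -1.08, and dNTP supply had a median of 0.32. Without 4 dpi replicate 2 instead, 0 members fell (2.14% of all genes) and the median was 0.09.

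From 4 to 7 dpi, 15 of the 49 members were downregulated and 0 upregulated, where 5.20% of all genes tested were downregulated and 7.44% upregulated. With DESeq2 the counts were 16 and 0, and without the threshold on the fold change 22 and 1. Of the 14310 genes tested, 2090 passed downwards and 1566 upwards without that threshold. A log2FC below 0 was seen in 45 members, with a median of -0.95 and a range of -2.09 to 0.78, beside -0.03 over all genes tested. In 12 members every 7 dpi library lay below every 4 dpi library, which held for 20.7% of all genes tested. The 15 genes were 4 of the MCM ring (Mcm2, Mcm5, Mcm6 and Mcm7), 3 of the polymerases and primase (Pold1, Pole and Prim2), 3 of dNTP supply (Rrm1, Rrm2 and Tyms), 2 of chromatin assembly (Chaf1b and Uhrf1) and 1 each of the other groups (Gmnn, Gins2 and Rfc4). All 15 had also been upregulated from 1 to 2 dpi, a step in which 35 of the 49 members were. The share of all genes with both calls was not counted.

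The largest decreases were those of Pole (log2FC = -2.09, SE 0.42, adjusted P = 0.00304, edgeR) and Mcm7 (log2FC = -2.08, SE 0.42, adjusted P = 0.00304), and in both the 7 dpi libraries lay below those of 4 dpi. Prim2 had the smallest P of the set in this step (log2FC = -1.29, SE 0.25, adjusted P = 0.00268, edgeR). Rrm1 (log2FC = -1.46, SE 0.30, adjusted P = 0.00339, edgeR) and Chaf1b (log2FC = -1.29, SE 0.30, adjusted P = 0.0069) fell without overlap of the libraries as well. Mcm6 (log2FC -1.17, adjusted P = 0.0444, edgeR), Rrm2 (-1.70, adjusted P = 0.0261), and Uhrf1 (-1.75, adjusted P = 0.0166) fell with libraries that overlapped, and Pold1 (-1.07, adjusted P = 0.0131) with libraries that did not. Pcna (log2FC -0.92, adjusted P = 0.0137, edgeR), Cdt1 (-0.95, adjusted P = 0.0299), Rpa1 (-0.85, adjusted P = 0.0325) and Orc2 (-0.61, adjusted P = 0.0491) passed the FDR but not the threshold on the fold change. Tk1 stayed near its level of 4 dpi (log2FC = -0.24, SE 0.30, adjusted P = 0.575, edgeR). Rfc1 went the other way (log2FC = 0.78, SE 0.20, adjusted P = 0.0113, edgeR), below the threshold on the fold change, with all 7 dpi libraries above those of 4 dpi.

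This step rested on single libraries more than the first one. Without 4 dpi replicate 1, 6 members fell (Chaf1b, Mcm7, Pole, Prim2, Rrm1 and Tyms), beside 3.31% of all genes in that fit, and the median log2FC was -0.53. The same 6 fell without 7 dpi replicate 2, with a median of -0.80 and 3.03% of all genes downregulated. Without 7 dpi replicate 3, 25 members fell, among them all 6 of the MCM ring, Cdt1 and Pcna, beside 8.67% of all genes, and the median was -1.33. Chaf1b, Mcm7, Pole, Prim2, Rrm1 and Tyms were called in all of the 12 fits that left out 1 library. Without 4 dpi replicate 1 and 7 dpi replicate 2 together, Pole and Prim2 were left (2.16% of all genes fell), and without the 2 libraries of highest member level, 4 dpi replicate 1 and 7 dpi replicate 3, 16 of the 48 members then tested fell, 14 of them among the 15, beside 6.26% of all genes. Among the members described by library, Mcm6 was no longer called without any one library of 1 or 2 dpi, 4 dpi replicate 1, 7 dpi replicate 1 or 7 dpi replicate 2 (log2FC from -0.58 without 4 dpi replicate 1 to -1.19 without 2 dpi replicate 2), and Pold1, Rrm2 and Uhrf1 were not without 4 dpi replicate 1 (-0.81, -1.23 and -1.10), 7 dpi replicate 1 (-0.85, -1.36 and -1.46) or 7 dpi replicate 2 (-0.96, -1.29 and -1.40).

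Between 1 and 7 dpi, 21 members were upregulated and 1 downregulated, where 19.7% of all genes tested were upregulated and 14.0% downregulated. The median log2FC was 0.79, beside 0.16 over all genes tested, and in 22 members every 7 dpi library lay above every 1 dpi library, which held for 30.0% of all genes tested. With DESeq2, 23 were upregulated and 0 downregulated. Without 7 dpi replicate 3, 16 were upregulated and 2 downregulated (Pcna and Pold2), with a median of 0.40, beside 18.7% and 14.7% of all genes. Upregulated by group were 4 of 5 genes of dNTP supply (median 1.75), 3 of 3 of chromatin assembly (1.67), 5 of 9 of helicase activation (1.02), 3 of 9 of the polymerases and primase (0.58), 3 of 11 of the clamp, loader and lagging strand (0.52), 2 of 6 of the MCM ring (0.79) and 1 of 6 of licensing (-0.21). Differences between groups were not tested.

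Rrm2 was again the gene of largest change (log2FC = 3.97, SE 0.69, adjusted P = 0.00019, edgeR), followed among the members described by library by Tk1 (log2FC = 2.56, SE 0.33, adjusted P = 1.57e-05). Pole (log2FC 1.90, adjusted P = 0.00518, edgeR), Mcm6 (1.78, adjusted P = 0.00252), Rfc1 (1.47, adjusted P = 2.93e-05), Chaf1b (1.29, adjusted P = 0.00396) and Pola1 (1.25, adjusted P = 0.000902) were higher at 7 dpi as well. Mcm7 (log2FC 1.08, adjusted P = 0.0462, edgeR) lost its call without any 1 dpi library, 2 dpi replicate 2, 4 dpi replicate 3 or 7 dpi replicate 3, the last of which left a log2FC of 0.31. Uhrf1 (log2FC 1.67, adjusted P = 0.0156, edgeR) lost its call without 1 dpi replicate 3 (1.56) or 7 dpi replicate 3 (0.73), and Dbf4 (1.02, adjusted P = 0.00331) without 7 dpi replicate 1 (0.81) or replicate 3 (1.0). Pold2 was the one gene that fell (log2FC = -1.01, SE 0.30, adjusted P = 0.0113, edgeR), a call lost without 1 dpi replicate 2 or 3, 2 dpi replicate 1 or 3, or 7 dpi replicate 1 or 2, when the log2FC was as small as -0.78. Pcna (log2FC = -0.84, SE 0.25, adjusted P = 0.00994, edgeR) and Orc2 (log2FC = -0.77, SE 0.22, adjusted P = 0.00789) were lower at 7 dpi than at 1 dpi in all libraries but below the threshold on the fold change.

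Over the 3 successive steps, 15 members rose and then fell, 19 rose with no later call, Tk1 rose in both of the first steps, and 14 were called in no step. The share of all genes with each of these patterns was not counted. These 14 were Cdc7, Cdt1, Dbf4, Fen1, Gins3, Orc1, Orc2, Orc6, Pcna, Pola2, Pold2, Pold3, Rfc2 and Rfc5. Between 1 and 7 dpi Dbf4 and Gins3 were upregulated and Pold2 downregulated. The 14 hold genes of steady level, such as Pola2 with 5.25 ± 0.968 (SD, n = 3), 6.37 ± 1.56, 5.4 ± 1.32 and 5.56 ± 1.19 CPM at 1, 2, 4 and 7 dpi, and abundant genes with a smaller change such as Pcna and Cdt1. They also hold genes of very few counts, of which Fen1, the flap nuclease of the lagging strand, had 89 counts in all 12 libraries together, and Orc1 had 242.

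Some members share exons with genes on the other strand, and the library protocol does not mark the strand, so reads of the partners cannot be separated. By the GENCODE M21 annotation, 84.2% of the exonic bases of Fen1 overlap Tmem258 and Gm10143, 67.3% of Gins2 overlap Gse1, 52.5% of Chaf1a overlap Ubxn6, 29.8% of Orc2 overlap Nif3l1 and 15.1% of Rfc2 overlap Lat2, all antisense. Values of these genes are therefore uncertain. In Mcm7 12.6% of the exonic bases were shared, and no base was shared in Mcm6, Cdt1, Pcna, Rrm1, Rrm2, Uhrf1 or Pola1. The pseudogene Pcna-ps2 had 129 counts in all libraries, beside 16028 of Pcna, and Tyms-ps had 4, beside 2029 of Tyms.

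Of 34 other replication factors tested, 13 rose from 1 to 2 dpi (38.2%, beside 5.09% of all genes tested) and 0 fell, with a median log2FC of 0.73. Among them were Pclaf, a partner of Pcna (log2FC = 5.06, SE 0.69, adjusted P = 0.000209, edgeR), and topoisomerase Top2a (log2FC = 3.48, SE 0.41, adjusted P = 6.6e-05). In the second step (2 to 4 dpi) Pclaf and Top2a rose and Asf1a and Mtbp fell, each 5.88% of the list, near the 8.02% and 3.88% of all genes. In the last step (4 to 7 dpi) Pclaf and Top2a fell, 5.88% of the list beside 5.20% of all genes, and Mcm9, a helicase of DNA repair, rose (log2FC = 1.09, SE 0.24, adjusted P = 0.00559, edgeR). Of the 7 S-phase cyclins and kinases, 5 rose in the first step (71.4%, beside 5.09% of all genes), 1 rose in the second (14.3%, beside 8.02%) and 4 fell in the last (57.1%, beside 5.20%). Cyclin A2, Ccna2, was at means of 0.298, 5.91, 34.7 and 8.18 CPM at 1, 2, 4 and 7 dpi, with log2FC of 4.32, 2.55 and -2.08 in the successive steps (adjusted P = 6.89e-05, 0.000219 and 0.00142, edgeR). Mki67, the gene of the proliferation marker Ki-67, was at means of 2.54, 11.9, 18.3 and 36.1 CPM, with the highest mean at 7 dpi, as in 2 of the 49 members. Its step from 4 to 7 dpi passed the FDR but not the threshold on the fold change (log2FC = 0.98, SE 0.26, adjusted P = 0.0144, edgeR).

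Another list held E2F proteins, pocket proteins and their partners, such as Lin9, which switch genes of the cell cycle on and off. Of its 16 genes tested, 6 rose from 1 to 2 dpi (E2f1, E2f7, E2f8, Lin9, Rbl1 and Tfdp2). This was 37.5%, beside 5.09% of all genes tested. In the second step 2 rose (Rbl2 and Tfdp2), or 12.5%, close to the 8.02% of all genes, and 0 were called in the last step. Tfdp2, a partner that E2F proteins need to bind DNA, had log2FC of 2.27 and 1.68 in the first steps (adjusted P = 0.000275 and 0.000586, edgeR), with means of 0.77, 3.73, 12 and 10.8 CPM at 1, 2, 4 and 7 dpi. Of the 37 other enzymes of nucleotide metabolism, 3 rose from 1 to 2 dpi, or 8.11%, near the 5.09% of all genes, with a median log2FC of 0.20. In the second step 6 fell (16.2%, beside 3.88% of all genes) and in the last 8 (21.6%, beside 5.20%). Between 1 and 7 dpi 15 fell (40.5%, beside 14.0%) and 2 rose (Prps2 and Tk2, 5.41% beside 19.7%), with a median of -0.88. Uck2, a uridine and cytidine kinase of the salvage of ribonucleotides, fell from means of 74.4 CPM at 1 dpi to 36, 9.52 and 4.04 CPM (between 1 and 7 dpi log2FC = -4.20, SE 0.41, adjusted P = 1.21e-06, edgeR). The CTP synthase Ctps fell in the second step (log2FC = -2.14, SE 0.38, adjusted P = 0.00106, edgeR), and Dck, which phosphorylates deoxynucleosides, fell in the last step (log2FC = -1.41, SE 0.27, adjusted P = 0.00225) after its highest mean, 218 CPM, at 4 dpi.

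**Figure D5:**
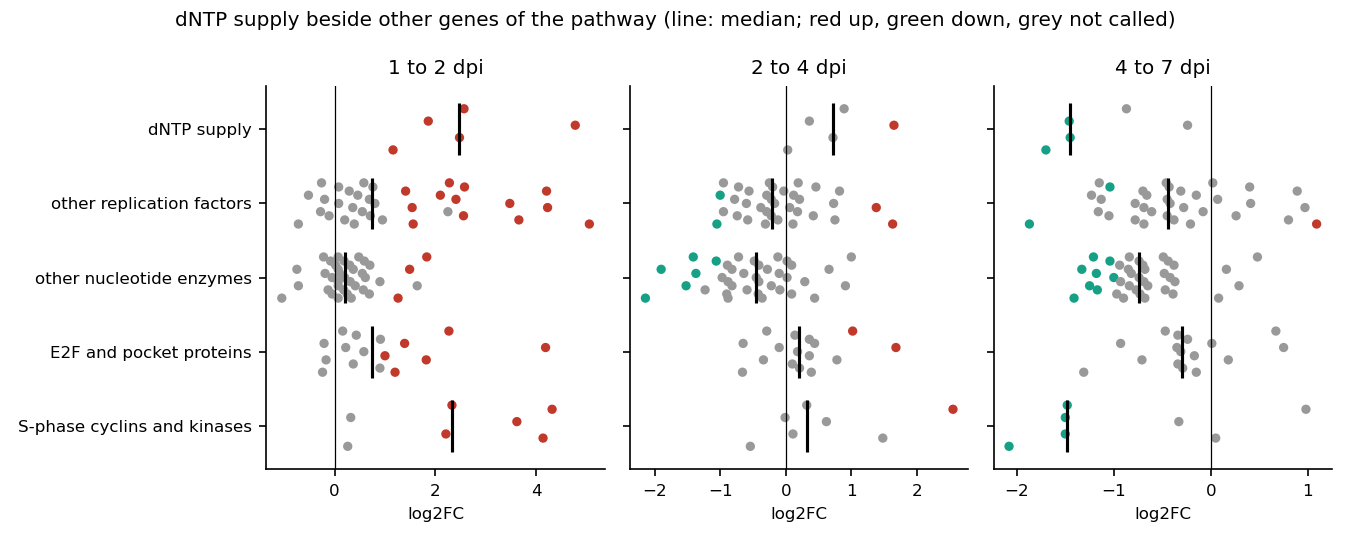
Log2FC (x-axis) of the 5 genes of dNTP supply and of the other lists of the pathway (rows) in the 3 successive transitions, each point a gene and each line a median, in red where upregulated, in green where downregulated and in grey where not called. The 5 genes of dNTP supply lie right of 0 in the first 2 panels, while the medians of the 37 other nucleotide enzymes are 0.20, -0.45 and -0.74.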

How the data were processed

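RNA-seq of sorted macrophages gave 12 libraries, 3 per time point, grouped by their labels. The deposited values are raw counts per gene. By the submitters' processing notes, the tools were Trim Galore 0.6.6 for trimming, HISAT2 2.2.1 for alignment (build GRCm39) and Subread 2.0.1 for counting. All 12 columns were used. Strand and mate settings of the counting are not given in the sources used here, and 83.1% of counts from 1 to 20 were even (median over libraries). Counts of mates one by one would do that and would overstate small counts.

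Counts were tested in R 4.3.3 with edgeR 4.0.16 (quasi-likelihood F test, TMM, filterByExpr, 14310 genes, 1 fit of all 12 libraries, Benjamini-Hochberg within each comparison). A gene was called a DEG where its FDR was below 0.05 and its log2FC exceeded 1 in either direction. The script was tested on simulated data. CPM are counts over the TMM-scaled library size, and RPKM use GENCODE M21 exonic lengths of build GRCm38 (the union of all annotated exons of a gene), joined by Ensembl ID. RefSeq promoters were of GRCm38.p6, and protein sequences were not used here. Library totals were 19528316 to 33599472, and low counts limit the precision of rare transcripts.

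Named by rule were the 2 members of highest mean CPM per role (3 for dNTP supply), the 3 called members of smallest P per successive comparison, the members of largest and smallest log2FC, those called against the main direction, and the 2 called pathway genes of smallest P per list. Other genes were named after their values were seen. Values of 1 pathway gene are not reported here. The members, lists and rules were chosen with earlier results of these data known. Alternatives were RLE scaling, DESeq2 1.42.0, no low-count filter, no fold threshold, a fit of the 6 libraries compared, a replicate block, removal of the gene of largest share, and each library left out. Removal of 2 pairs of libraries was added after seeing the data.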

Additional observations from a re-analysis of the deposited data

How the results depend on the processing

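The rise from 1 to 2 dpi kept 33 to 36 of 49 members upregulated and 0 downregulated under no low-count filter, no fold threshold, RLE scaling, DESeq2 and a fit of the 6 libraries compared, and 29 to 35 upregulated when each library was left out in turn. The later steps moved more. Downregulated members from 2 to 4 dpi numbered 0, 2 with no fold threshold, 0 to 7 when each library was left out (7 without 4 dpi replicate 1) and 7 with either pair of libraries left out. Between 4 and 7 dpi they numbered 15, 9 in the fit of the 6 libraries, 6 to 25 when each library was left out and 2 without 4 dpi replicate 1 and 7 dpi replicate 2, while upregulated members were 0, and 1 with no fold threshold. Between 1 and 7 dpi downregulated members numbered 1, 3 with no fold threshold, 0 with RLE scaling, DESeq2 or the gene of largest share removed, 0 to 2 when each library was left out, 0 without 4 dpi replicate 1 and 7 dpi replicate 2 and 2 without 4 dpi replicate 1 and 7 dpi replicate 3. The cause of these changes was not tested. Of 35 calls of named members, 23 were kept with each library left out, and no direction was reversed. Named calls lost numbered 5 each with RLE scaling (Gins4 and Rfc1 from 1 to 2 dpi, Mcm6 and Pold1 from 4 to 7 dpi, Pold2 from 1 to 7 dpi), with DESeq2 (Rrm2 in place of Mcm6) and in the fit of the 6 libraries (Rfc1, Mcm6, Pold1 and Rrm2 in these steps, Mcm7 from 1 to 7 dpi), 2 with the gene of largest share removed (Mcm6 and Pold2), 9 without 4 dpi replicate 1 and 7 dpi replicate 2, 3 without 4 dpi replicate 1 and 7 dpi replicate 3, and 0 with no low-count filter.

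Same-numbered libraries deviated together in 1 of 18 pairs at a correlation over 0.1 (range -0.133 to 0.127). Differently numbered pairs reached 0.265 (4 dpi replicate 1 with 7 dpi replicate 3) and -0.221 (4 dpi replicate 1 with 7 dpi replicate 2). No pairing by number was seen, in a check that rests on deviations from means of 3 libraries. Shared handling of libraries was not tested. With a replicate block, 35 members were upregulated in the first step, 1 in the second and 19 over the whole course, and 15 were downregulated in the last step, and among the named calls those of Dbf4 and Mcm7 over the whole course were lost. Genes with few counts, such as Fen1 with 89 over all libraries, were too shallow for small changes to be detectable. For Fen1, with 84.2% of its exonic bases shared, a rare transcript and a loss of reads in the counting cannot be told apart.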
